A study of Caenorhabditis elegans with 12 samples.

Results

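The genes described here are 10 components of the EGF, Ras and Notch signals that pattern the vulva of Caenorhabditis elegans. They were picked by role in these pathways, through their WormBase symbols and with no threshold on a measured value, at a time when earlier results of these data were known, and they make up 10 of the 20182 genes in the count table. They are the EGF-type ligand gene lin-3, the EGF receptor gene let-23, the Ras gene let-60, the Raf, MEK and ERK kinase genes lin-45, mek-2 and mpk-1, the transcription factor genes lin-1 and lin-31, the Notch receptor gene lin-12 and the Notch ligand gene lag-2. The question asked of them was whether their mRNAs co-purified with LIN41, and how their levels compared between the 2 worm strains.

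RNA co-immunoprecipitation and sequencing (RIP-seq) had been performed on whole worms at the L3/L4 stage, grown for about 30 h at 25 °C. RNA on anti-FLAG beads (IP) and RNA of the same lysate (input) were sequenced from 2 strains, with 3 replicates of each, which gave 12 libraries in 4 groups. The LIN41 strain carried lin-41(n2914), him-5(e1490) and the transgene xeSi197, in which the lin-41 promoter drives FLAG- and GFP-tagged LIN41 with the lin-41 3′ UTR. The SART-3 control strain carried him-5(e1490) and the transgene xeSi55, in which the dpy-30 promoter drives tagged SART-3, and it had its own lin-41 gene. Both strains therefore carried the him-5 mutation, which raises the share of males, and males form no vulva. The tagged LIN41 is made only where the lin-41 promoter is active, whereas the control protein is under another promoter. Each IP library held the RNA of 5 parallel IPs. All inputs were run in lane 3 and all IPs in lane 4 of the flow cell, so a difference between IP and input cannot be told apart from one between lanes.

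In the hermaphrodite, the anchor cell of the gonad secretes LIN-3, which activates the receptor LET-23 on the vulval precursor cells below it. LET-23 acts through the GTPase LET-60 and the kinase cascade of LIN-45, MEK-2 and MPK-1, and MPK-1 phosphorylates LIN-1 and LIN-31. The induced precursor cell produces Notch ligands of the DSL family, LAG-2 among them, which activate LIN-12 on its neighbours. LIN-12 and LAG-2 also decide earlier which of a pair of equivalent gonadal cells becomes the anchor cell. All of these genes act in other tissues too, and let-60 has also been described as a target of the let-7 miRNA, the repressor of lin-41.

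Total counts ranged from 291466 to 404046 in the LIN41 IPs, from 859814 to 2024430 in the LIN41 inputs, from 412440 to 612445 in the SART-3 IPs and from 1274703 to 1401265 in the SART-3 inputs. Replicate 1 stood apart in every group: the chi-square of counts per degree of freedom was 3.61 to 15.1 for pairs with replicate 1 and 1.62 to 2.22 for replicate 2 against 3. The bait mRNA lin-41 was higher in the LIN41 IP than in its input by 3.67 on the log2 scale (SE 0.377, adjusted p = 7.1e-06), and its value for the SART-3 strain was −0.40 (adjusted p = 0.683). Markers of muscle, epidermis, neurons, intestine, germ line and sperm were detected in every group. Of 15 vulval and anchor cell markers, all had counts in both inputs, and 14 had counts in both IPs, where vab-15 was at 0. Since whole worms were sequenced, fewer cells of a type and less RNA per cell cannot be told apart in any value below.

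Values per library are given as normalized CPM, the counts relative to each library total after scaling by its TMM factor. Log2 values come from 1 edgeR quasi-likelihood fit of all 12 libraries with a term for replicate number, and a gene was called at a Benjamini-Hochberg adjusted p under 0.05 over the 12036 genes that passed the filter on low counts. Of the 10 genes, 8 passed that filter. lin-31 and lag-2 did not pass it and are described by their counts.

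No enrichment with LIN41 over the control was called for any of the 8 tested mRNAs. LIN41-specific enrichment is the log2 ratio of LIN41 IP to LIN41 input minus that of SART-3 IP to SART-3 input. It ran from −0.35 for lin-12 to 0.32 for let-60, with a median of 0.02 over the 8 genes and of −0.02 over all tested genes. No gene was called (adjusted p = 1.00 for each), 0 of 8 had an unadjusted p under 0.05, where 1.93 percent of all tested genes did, and 0 were called by edgeR's likelihood ratio test, DESeq2 or limma-voom. Over all tested genes, 0.0415 percent were called, 5 genes in all. These 5 included mab-3 at 2.35, lin-29 at 4.06, mab-10 at 4.35 and lin-41 itself at 4.07, and dmd-3, at 3.34, missed the threshold (adjusted p = 0.0842). The paper, which used a likelihood ratio test, reports all of these named mRNAs, dmd-3 included, as associated with LIN41. The likelihood ratio test run here, with the replicate number in place of the sequencing batch, called 7 of all tested genes. They are not named here and need not be those of the paper.

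The precision of these values differed between the genes. The 95% interval of lin-1, the most deeply counted of the 8, was −0.59 to 0.55. For lin-12 the interval was −1.16 to 0.47, for mpk-1 −0.66 to 1.15, for mek-2 −1.13 to 1.24, for let-23 −1.68 to 1.57, for let-60 −1.02 to 1.65, for lin-3 −1.83 to 1.75 and for lin-45 −1.58 to 2.19. All 8 upper bounds were below the fitted value of mab-3. Of these, 6 were also below the lower bound of the mab-3 interval (1.75 to 2.95), and those of lin-45 and lin-3 were not. The SEs of let-60 (0.638), let-23 (0.776), lin-3 (0.856) and lin-45 (0.902) were as large as or larger than that of dmd-3 (0.633), which missed the threshold at 3.34. lin-29 (0.643) and lin-41 (0.690) were called with SEs above that of let-60. These SEs belong to the fitted values, and what size of enrichment could have been missed at this depth was not tested.

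**Figure D1:**
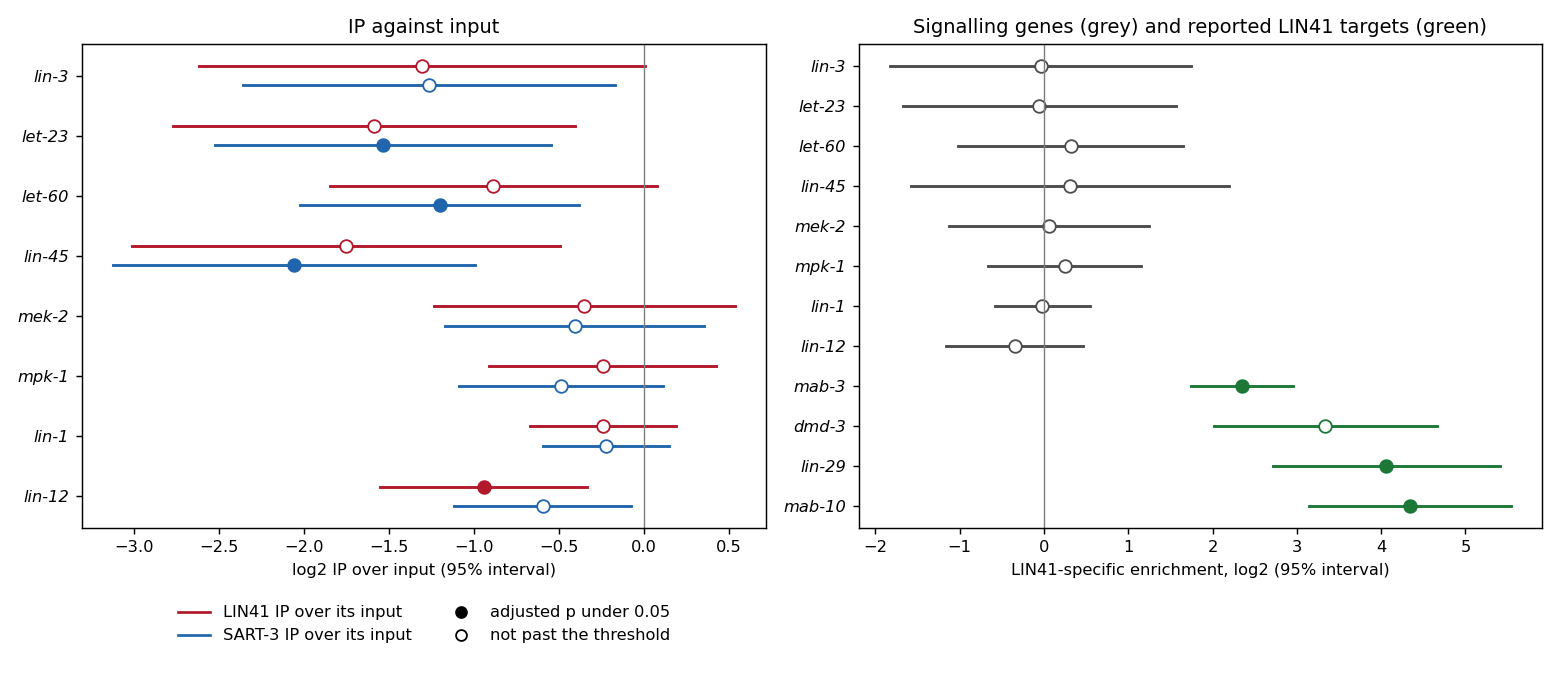
Left, fitted log2 of IP over input for the 8 tested signalling genes, in red for LIN41 and in blue for SART-3, with 95% intervals. Filled points passed the adjusted p threshold of 0.05 and open points did not. All 16 values lie left of 0, and lin-3, let-23, let-60 and lin-45 passed the filter on low counts only through their inputs. Right, LIN41-specific enrichment (log2) of the same 8 genes in grey and of mab-3, dmd-3, lin-29 and mab-10 in green. The grey points lie between −0.35 and 0.32 and the green points between 2.35 and 4.35.

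For let-60 the replicates did not share a direction. Its LIN41-specific enrichment was 1.52, 0.75 and −0.89 in replicates 1, 2 and 3, around a fitted value of 0.32 (SE 0.638). lin-45 had values of −0.04, 1.06 and 1.04 over the replicates around a fitted 0.30, and mpk-1 had 1.22, 0.17 and −0.50 around 0.25. Of the 8 genes, each had at least 1 replicate on the other side of 0.

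Against their own inputs, all 8 mRNAs had negative fitted values in both IPs. The filter on low counts could be passed through the inputs alone. lin-3, let-23, let-60 and lin-45 did not reach its level in enough IP libraries and passed it only through their inputs. Values below 0 were thus favoured for these genes, as for any other tested gene that passed in this way. In the LIN41 IP, lin-12 was called lower and the other 7 were not called, with a median of −0.91 over the 8 genes and of −0.07 over all tested genes. In the SART-3 IP, lin-45, let-23 and let-60 were called lower and the other 5 were not, with a median of −0.90 against −0.03 over all tested genes. Over all tested genes, 5.28 percent were called lower and 8.89 percent higher in the LIN41 IP, and 7.79 percent lower and 10.5 percent higher in the SART-3 IP. At an unadjusted p under 0.05, 3 of 8 genes were lower for LIN41 and 5 of 8 for SART-3, where 14.7 percent and 16.4 percent of all tested genes were lower. The signs held when libraries were scaled by RLE size factors, by total counts only or with offsets for coding length. They also held under each library left out, except that mek-2 was at 0.07 without LIN41 IP replicate 3 and at 0.22 without LIN41 input replicate 1 (adjusted p = 0.951 and 0.804). Total counts alone moved the median of all genes to −0.40 for LIN41 and to −0.32 for SART-3. They gave 701 genes higher and 2190 lower in the LIN41 IP, in place of 1070 and 636, and 782 higher and 2224 lower in the SART-3 IP, in place of 1261 and 938. With offsets for coding length the splits were 1302 higher and 396 lower for LIN41 and 1433 higher and 627 lower for SART-3. Without replicate 3, 1.40% of all tested genes were called in either direction for LIN41 and 0.399% for SART-3, in place of 14.2% and 18.3%. A call lost without replicate 3, as given for single genes below, is therefore not particular to that gene.

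**Figure D2:**
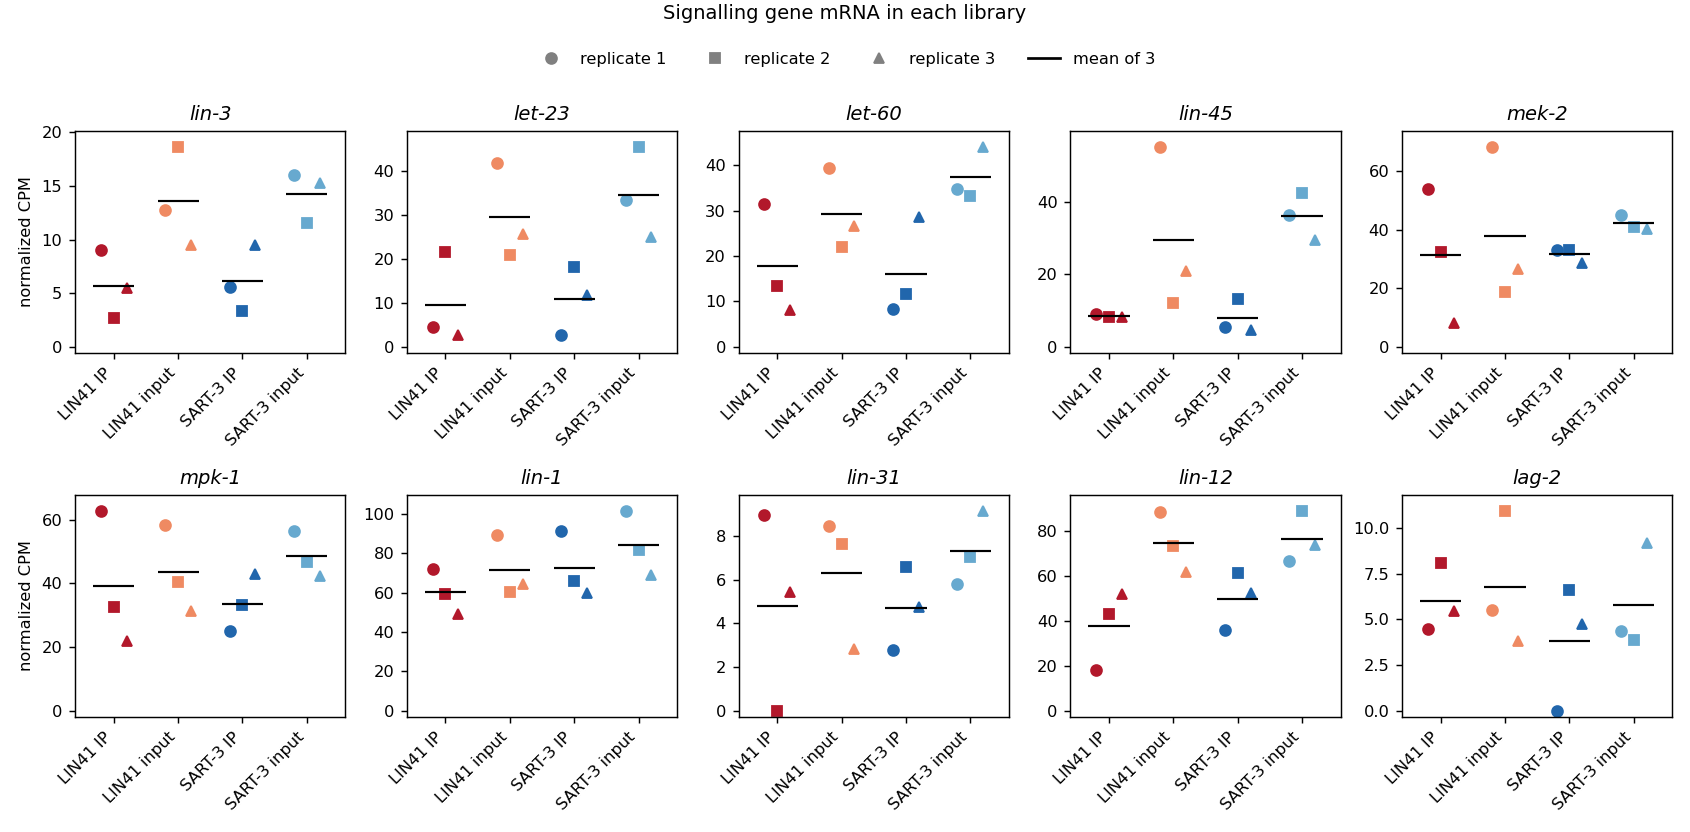
Normalized CPM (linear axes from 0) of the 10 signalling genes in each of the 12 libraries. Red stands for LIN41 IP, orange for LIN41 input, dark blue for SART-3 IP and light blue for SART-3 input, the symbol gives the replicate number and the bar is the mean of 3. For lin-45 all IP points lie at or below 13.2 CPM, and replicate 1 of the LIN41 input stands at 55.1, above all other libraries.

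The ligand gene lin-3 (WBGene00002992, WBcel235 chromosome IV, 11054308 to 11063768, plus strand) was sparsely counted. It had 8.98, 2.70 and 5.46 CPM in the LIN41 IPs, against 12.7, 18.6 and 9.48 CPM in the LIN41 inputs. The SART-3 IPs had 5.53, 3.31 and 9.53 CPM, against 15.97, 11.5 and 15.3 CPM in the SART-3 inputs. Neither pair of groups overlapped, and every IP value stood for only 1 to 4 reads. The fitted log2 values were −1.31 for LIN41 (SE 0.626, adjusted p = 0.168) and −1.26 for SART-3 (SE 0.524, adjusted p = 0.0963), and neither was called. With total counts only the SART-3 value was called (log2 −1.54, adjusted p = 0.0379). An exon of ttr-16 on the opposite strand overlaps lin-3 exons by 209 bp in WBcel235, and since the strand setting of the counting is not given in the sources used here, some of these reads may belong to ttr-16.

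let-23 (WBGene00002299, chromosome II, 9197512 to 9207213, plus strand), the receptor of LIN-3, varied widely between IP replicates. It was at 4.49, 21.6 and 2.73 CPM in the LIN41 IPs, against 42.0, 20.8 and 25.6 CPM in the LIN41 inputs. In the SART-3 strain it was at 2.77, 18.2 and 11.9 CPM in the IPs, against 33.4, 45.5 and 25.1 CPM in the inputs. The IP values stood for only 1, 8 and 1 reads for LIN41 and 1, 11 and 5 reads for SART-3. Replicate 2 of the LIN41 IP lay within its input range, whereas the SART-3 groups did not overlap. let-23 fell 2.90-fold in the SART-3 IP (log2 −1.53, SE 0.472, 95% interval −2.52 to −0.55, adjusted p = 0.0302). Its value for LIN41, −1.59 (SE 0.564), was as negative but missed the threshold (adjusted p = 0.0661). The SART-3 call was lost with no replicate block (adjusted p = 0.151), with limma-voom (0.0575), with offsets for coding length (log2 −1.06, adjusted p = 0.0746) and with thinned counts (0.275). It was also lost without replicate 3 (0.175), SART-3 IP replicate 1 (0.175), SART-3 IP replicate 3 (0.0800), SART-3 input replicate 2 (0.133) or SART-3 input replicate 3 (0.0737). The LIN41 value was called without replicate 2 (log2 −3.23, adjusted p = 0.0120), LIN41 IP replicate 2 (0.0401), LIN41 input replicate 2 (0.00628) or SART-3 IP replicate 1 (0.0495), and with the likelihood ratio test (0.0180), total counts only (0.0308) or no filter on low counts (0.00483).

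The Notch receptor gene lin-12 (WBGene00003001, chromosome III, 9060221 to 9071472, minus strand) had the highest IP counts of the receptors and ligands. Its levels were 17.96, 43.2 and 51.8 CPM in the LIN41 IPs, against 88.6, 73.4 and 61.6 CPM in the LIN41 inputs. SART-3 IPs held 35.96, 61.2 and 52.4 CPM, against 66.8, 89.2 and 74.1 CPM in SART-3 inputs. In both strains every IP was below every input. lin-12 fell 1.92-fold in the LIN41 IP (log2 −0.94, SE 0.290, 95% interval −1.55 to −0.34, adjusted p = 0.0360), and its SART-3 value was −0.60 (SE 0.248, adjusted p = 0.0984). The difference of the 2 strains, −0.35, was the LIN41-specific value above and was not called. Replicate 1 carried much of the LIN41 value: its log2 was −2.18, beside −0.74 and −0.24 in replicates 2 and 3, and without it the fitted value was −0.51 (adjusted p = 0.195).

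The call of lin-12 in the LIN41 IP depended on several libraries. It was lost without replicate 2 (adjusted p = 0.0999), replicate 3 (0.0757), LIN41 IP replicate 1 (0.163), LIN41 IP replicate 2 (0.126), LIN41 input replicate 1 (0.118), SART-3 IP replicate 3 (0.0521) or SART-3 input replicate 2 (0.0508). It was lost as well with no replicate block (0.114), with DESeq2 (0.0641), with limma-voom (0.0513) and with offsets for coding length, which moved lin-12 to −0.45 (adjusted p = 0.220). In the SART-3 IP lin-12 was called without replicate 1 (log2 −0.52, adjusted p = 0.0357), without LIN41 input replicate 1 (−0.61, adjusted p = 0.0162) and with total counts only (−0.88, adjusted p = 0.0356).

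lag-2 (WBGene00002246, chromosome V, 3188343 to 3190115, plus strand), the DSL ligand gene, was near the detection limit in every group. Its counts were 1, 3 and 2 in the LIN41 IPs, against 13, 10 and 4 in the LIN41 inputs, and 0, 4 and 2 in the SART-3 IPs, against 6, 6 and 15 in the SART-3 inputs. As normalized CPM these were 4.49, 8.11 and 5.46 in the LIN41 IPs, against 5.51, 10.96 and 3.79 in the LIN41 inputs. For SART-3 they were 0, 6.61 and 4.77 CPM in the IPs, against 4.35, 3.85 and 9.18 CPM in the inputs. All groups overlapped. A count of 0 in SART-3 IP replicate 1 allows up to 3 reads, or 8.30 CPM, which covers counting error only. Fitted without a filter on low counts, lag-2 had log2 values of −0.23 for LIN41 and −0.52 for SART-3 (adjusted p = 0.911 and 0.748).

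The Ras gene let-60 (WBGene00002335, chromosome IV, 11688227 to 11691088, minus strand) had 31.4, 13.5 and 8.19 CPM in the LIN41 IPs, against 39.4, 21.9 and 26.5 CPM in the LIN41 inputs. It had 8.30, 11.6 and 28.6 CPM in the SART-3 IPs, against 34.8, 33.4 and 44.1 CPM in the SART-3 inputs. The IP values stood for 7, 5 and 3 reads for LIN41 and 3, 7 and 12 reads for SART-3. The LIN41 groups overlapped through replicate 1 of the IP, and the SART-3 groups did not overlap. let-60 fell 2.30-fold in the SART-3 IP (log2 −1.20, SE 0.393, 95% interval −2.03 to −0.38, adjusted p = 0.0396). The LIN41 value was −0.89 (SE 0.459, adjusted p = 0.202). The call for SART-3 was lost with no replicate block (adjusted p = 0.164), with DESeq2 (0.0631), and without replicate 2 (0.193), replicate 3 (0.142), LIN41 IP replicate 2 (0.0542), SART-3 IP replicate 1 (0.228), SART-3 IP replicate 2 (0.115), SART-3 input replicate 2 (0.140) or SART-3 input replicate 3 (0.159). With offsets for coding length it was kept, at −1.47 (adjusted p = 0.00938).

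lin-45 (WBGene00003030, chromosome IV, 6742537 to 6748572, minus strand), the Raf kinase gene, had the most negative IP values of the 8 tested genes. It was counted 2, 3 and 3 times in the LIN41 IPs and 2, 8 and 2 times in the SART-3 IPs. This corresponded to 8.98, 8.11 and 8.19 CPM in the LIN41 IPs, against 55.1, 12.1 and 20.9 CPM in the LIN41 inputs. The SART-3 IPs were at 5.53, 13.2 and 4.77 CPM, against 36.3, 42.3 and 29.4 CPM in the SART-3 inputs. The groups did not overlap in either strain, and the inputs of the LIN41 strain spread the most. lin-45 fell 4.17-fold in the SART-3 IP (log2 −2.06, SE 0.509, 95% interval −3.123 to −0.995, adjusted p = 0.0100), and its LIN41 value was −1.76 (SE 0.602, adjusted p = 0.0572). The SART-3 call was lost with no replicate block (adjusted p = 0.0534) and without replicate 3 (0.169), SART-3 IP replicate 1 (0.0900), SART-3 IP replicate 3 (0.0629) or SART-3 input replicate 2 (0.0719), and was kept with offsets for coding length (log2 −1.62, adjusted p = 0.0151). The LIN41 value was called without replicate 2 (adjusted p = 0.0392) or LIN41 input replicate 2 (0.00332), and with a replicate block per lysate (0.0294), the likelihood ratio test (0.0252), total counts only (0.0268) or no filter on low counts (0.00303).

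mek-2 (WBGene00003186, chromosome I, 3005403 to 3013448, minus strand), which encodes the MEK kinase, had 53.9, 32.4 and 8.19 CPM in the LIN41 IPs, against 68.3, 18.6 and 26.5 CPM in the LIN41 inputs. In the SART-3 strain it had 33.2, 33.1 and 28.6 CPM in the IPs, against 44.998, 41.1 and 40.4 CPM in the inputs. The SART-3 replicates were close to each other and the groups did not overlap, while the LIN41 libraries spanned 8.19 to 68.3 CPM and overlapped. Neither fitted value was called: −0.35 for LIN41 (SE 0.423, adjusted p = 0.609) and −0.41 for SART-3 (SE 0.364, adjusted p = 0.448). Exons of Y54E10BL.3 on the opposite strand overlap those of mek-2 by 410 bp, so the same reservation holds as for lin-3.

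The ERK gene mpk-1 (WBGene00003401, chromosome III, 4216763 to 4228108, minus strand) was at 62.9, 32.4 and 21.8 CPM in the LIN41 IPs, against 58.5, 40.5 and 31.3 CPM in the LIN41 inputs. For SART-3 the IPs had 24.9, 33.1 and 42.9 CPM, against 56.6, 46.8 and 42.2 CPM in the inputs. Both pairs of groups overlapped. The fitted values were −0.24 (SE 0.319, adjusted p = 0.643) for LIN41 and −0.49 (SE 0.285, adjusted p = 0.235) for SART-3.

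Among the transcription factors, the ETS factor gene lin-1 (WBGene00002990, chromosome IV, 2275861 to 2300286, minus strand) gave the most precise values. LIN-1 blocks vulval fates until MPK-1 phosphorylates it. Its mRNA had 71.9, 59.4 and 49.1 CPM in the LIN41 IPs, against 89.1, 60.3 and 64.5 CPM in the LIN41 inputs, and 91.3, 66.1 and 59.6 CPM in the SART-3 IPs, against 101.6, 81.5 and 69.2 CPM in the SART-3 inputs. IP and input overlapped in both strains, and within each replicate number the IP was below its input. The fitted values were −0.24 for LIN41 (SE 0.205, adjusted p = 0.456) and −0.22 for SART-3 (SE 0.177, adjusted p = 0.390).

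The forkhead factor gene lin-31 (WBGene00003017, chromosome II, 3982549 to 3987029, plus strand), whose product partners with LIN-1, was counted 2, 0 and 2 times in the LIN41 IPs, against 20, 7 and 3 times in the LIN41 inputs. The SART-3 IPs had 1, 4 and 2 counts, against 8, 11 and 15 counts in the SART-3 inputs. In normalized CPM it spanned 0 to 8.98 in the LIN41 IPs, against 2.84 to 8.48 in the LIN41 inputs, and 2.77 to 6.61 in the SART-3 IPs, against 5.81 to 9.18 in the SART-3 inputs. All groups overlapped. A fit with no filter gave −0.67 for LIN41 and −0.58 for SART-3 (adjusted p = 0.724 and 0.669).

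Counted over all 10 genes, 3 had every LIN41 IP below every LIN41 input (lin-3, lin-45 and lin-12), where 11.7 percent of all tested genes did. In the SART-3 strain the same held for 6 genes (lin-3, let-23, let-60, lin-45, mek-2 and lin-12), where 18.0 percent of all tested genes did. No gene had every IP above every input in either strain. Of the genes named here, lin-3, let-23, let-60 and lin-45 passed the filter on low counts only through their inputs.

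Long mRNAs had lower values in both IPs, and 7 of the 8 tested signalling genes were in the 2 longest quartiles of coding length. Among tested genes of more than 1755 bp of coding length, the quartile to which let-23 (3972 bp), lin-45 (2582 bp) and lin-12 (4290 bp) belonged, the median log2 of IP over input was −0.39 in both strains, with 11.7% called lower for LIN41 and 18.5% for SART-3. In the quartile from 1152 to 1755 bp, with lin-3, mek-2, mpk-1 and lin-1, the median was −0.14 in both. let-60 (555 bp) belonged to the shortest quartile, of at most 708 bp, where the median was 0.33 for LIN41 and 0.43 for SART-3, and only 1.03% and 1.10% of the genes were called lower. let-60 itself was at −0.89 and −1.20. Low levels also went with lower IP values: in the quartile of genes with mean levels under 23.9 CPM, with lin-3, let-23 and lin-45, the median was −0.25 for LIN41 and −0.23 for SART-3. Markers of other tissues were called in both directions. In the LIN41 IP 3 of 10 epidermis, 3 of 9 intestine and 1 of 10 neuron markers were higher, where 8.89 percent of all tested genes were. Lower were 2 of 14 germ line, 2 of 9 intestine, 1 of 10 muscle, 1 of 10 epidermis and 1 of 10 neuron markers, beside 5.28 percent of all tested genes. In the SART-3 IP 3 of 10 sperm, 3 of 10 epidermis, 3 of 9 intestine, 2 of 10 muscle and 1 of 10 neuron markers were higher, beside 10.5 percent of all tested genes. Lower were 5 of 10 neuron, 1 of 14 germ line, 1 of 10 muscle, 1 of 10 epidermis and 1 of 9 intestine markers, beside 7.79 percent of all tested genes. What part length, level and tissue had in the values of single genes was not tested beyond the offsets for length given above.

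In the inputs the level of these mRNAs did not differ detectably between the strains. Fitted log2 values of LIN41 input over SART-3 input ran from −0.33 for let-60 (SE 0.289, 95% interval −0.94 to 0.27) to 0.00 for lin-12 (SE 0.199, −0.41 to 0.42). None of the 8 was called, none had an unadjusted p under 0.05, where 9.25 percent of all tested genes did, and 0 were called by the likelihood ratio test, DESeq2 or limma-voom, while 1.41 percent of all tested genes were called. The median was −0.18, beside 0.01 over all tested genes. The groups of inputs overlapped for all 10 genes, where 4.21 percent of all tested genes did not overlap. The widest intervals were −1.004 to 0.386 for lin-45, −0.82 to 0.54 for let-23 and −0.82 to 0.61 for lin-3. The sum of the vulval and anchor cell markers was 460 to 655 CPM in the LIN41 inputs and 523 to 670 CPM in the SART-3 inputs, and 0 of 12 tested markers were called. Among markers of other tissues, 4 of 10 tested sperm markers and 2 of 10 epidermis markers were called higher in the LIN41 inputs, and 0 of 14 germ line, 10 muscle, 10 neuron and 9 intestine markers were called.

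Replicate 1 of the LIN41 input stood out for these genes. It was the highest of its 3 libraries for 8 of 10 genes (all but lin-3 and lag-2), where this was so for 39.6% of all tested genes. The median ratio of replicate 1 to the mean of replicates 2 and 3 was 1.62 for the 10 genes and 0.93 over all tested genes. It reached 3.35 for lin-45 and 3.02 for mek-2. In the SART-3 inputs the ratio was 0.98, beside 1.01 over all tested genes, and replicate 1 was the highest for 4 of 10 genes, close to the 44.4% of all tested genes. In the IPs it was the highest for 7 of 10 genes in the LIN41 strain and the lowest for 6 of 10 in the SART-3 strain, with median ratios of 1.76 and 0.62. Over all tested genes it was the highest for 37.5% in the LIN41 IPs and the lowest for 37.3% in the SART-3 IPs, with median ratios of 0.94 and 0.98. The same LIN41 input had 655 CPM of vulval and anchor cell markers, beside 476 and 460 in replicates 2 and 3, 1073 CPM of neuron markers, beside 743 and 671, and 1148 CPM of epidermis markers, beside 2326 and 2251. Replicate 1 of the SART-3 input likewise had 670 CPM of vulval and anchor cell markers, beside 573 and 523. It had 1158 CPM of neuron markers, beside 774 and 726, and 1568 CPM of epidermis markers, beside 1711 and 1632. In both IPs replicate 1 was the highest for neuron markers and the lowest for vulval and anchor cell markers. The part of these cell types or of depth, which was also highest in replicate 1 of the LIN41 input, was not tested.

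Without replicate 1, which left 2 libraries per group, 3 of the 8 genes were lower in the LIN41 inputs. lin-45 was at −1.08 (adjusted p = 0.00440), mek-2 at −0.83 (adjusted p = 0.0105) and let-60 at −0.68 (adjusted p = 0.0365). The same fit called 8.53 percent of all tested genes lower and 15.4 percent higher. It also called 6 of 22 other positive factors of the EGF and Ras pathway lower and 2 higher, 8 of 26 negative factors lower, and 5 of 19 other Notch factors lower and 1 higher. With only LIN41 input replicate 1 left out, lin-45 alone of the 8 was called (log2 −1.09, adjusted p = 0.0265), where 3.86 percent of all tested genes were called lower. By replicate number, lin-45 in the LIN41 input differed from the SART-3 input by 0.58, −1.65 and −0.45 on the log2 scale, mek-2 by 0.58, −1.06 and −0.57, and let-60 by 0.17, −0.56 and −0.69.

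**Figure D3:**
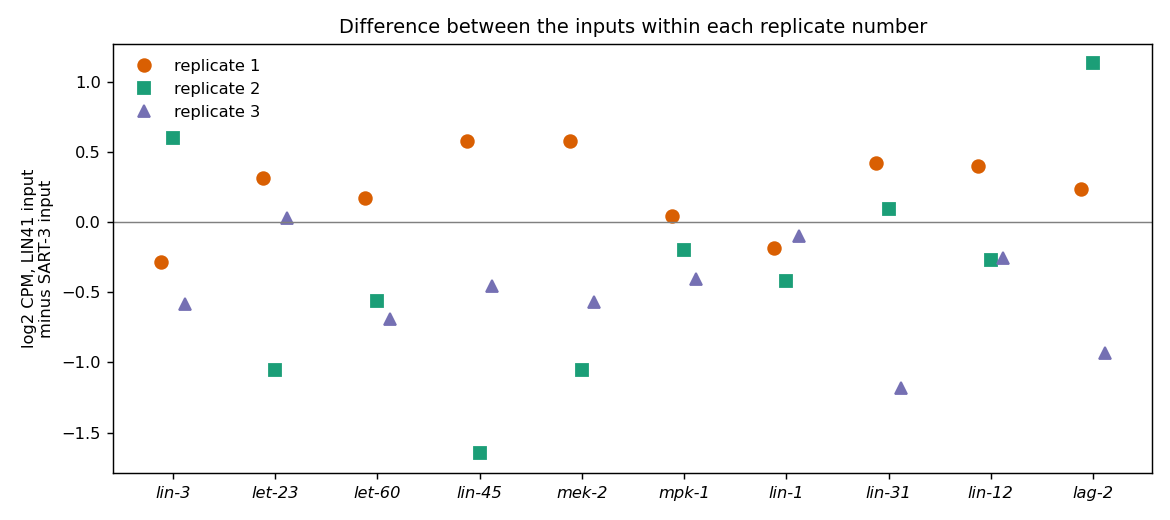
Difference in log2 CPM between the LIN41 input and the SART-3 input of the same replicate number, for each of the 10 genes. Circles are replicate 1, squares replicate 2 and triangles replicate 3. For lin-45, mek-2 and let-60 replicate 1 lies above 0 and replicates 2 and 3 lie below 0.

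No difference between the IPs of the strains was called for these genes either. LIN41 IP over SART-3 IP, with no correction for input, was between −0.34 for lin-12 (SE 0.333, 95% interval −1.04 to 0.35) and 0.08 for mpk-1 (SE 0.367, −0.68 to 0.85). None of 8 was called, 0 had an unadjusted p under 0.05, where 8.42 percent of all tested genes did, and 0 were called by the likelihood ratio test, DESeq2 or limma-voom, beside 0.208 percent of all tested genes called. All 10 genes overlapped between the IPs, where 7.83 percent of all tested genes did not. In let-60 the difference was 1.69, 0.19 and −1.57 on the log2 scale in replicates 1, 2 and 3, and in mpk-1 it was 1.27, −0.03 and −0.91.

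Levels were compared between genes per kb of coding length. In the LIN41 inputs the order was lin-1 (53.7 ± 11.7 CPM per kb, SD, n = 3), let-60 (52.8 ± 16.4), mpk-1 (32.5 ± 10.4), mek-2 (32.5 ± 22.9), lin-12 (17.4 ± 3.16), lin-45 (11.4 ± 8.81), lin-3 (9.18 ± 3.13), lin-31 (8.87 ± 4.27), let-23 (7.42 ± 2.79) and lag-2 (5.59 ± 3.09). No neighbours in that order were apart by more than their range. In the SART-3 inputs let-60 (67.4 ± 10.5) and lin-1 (63.4 ± 12.4) led, followed by mpk-1 (36.4 ± 5.50), mek-2 (36.2 ± 2.14), lin-12 (17.9 ± 2.66), lin-45 (13.9 ± 2.51), lin-31 (10.3 ± 2.39), lin-3 (9.62 ± 1.61), let-23 (8.73 ± 2.59) and lag-2 (4.79 ± 2.43). There the ranges of neighbours overlapped except between lin-1 and mpk-1 and between mek-2 and lin-12. Per kb, the means of both ligands, both receptors, Raf and lin-31 lay below those of Ras, MEK, ERK and lin-1 in both inputs. The ranges of these sets were apart in the SART-3 inputs only. Without division by length the order differed: in the LIN41 and SART-3 inputs lin-12 had means of 74.6 and 76.7 CPM and let-60 of 29.3 and 37.4 CPM. Over all tested genes the median level was 41.5 CPM per kb in the LIN41 inputs and 41.3 CPM per kb in the SART-3 inputs.

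**Figure D4:**
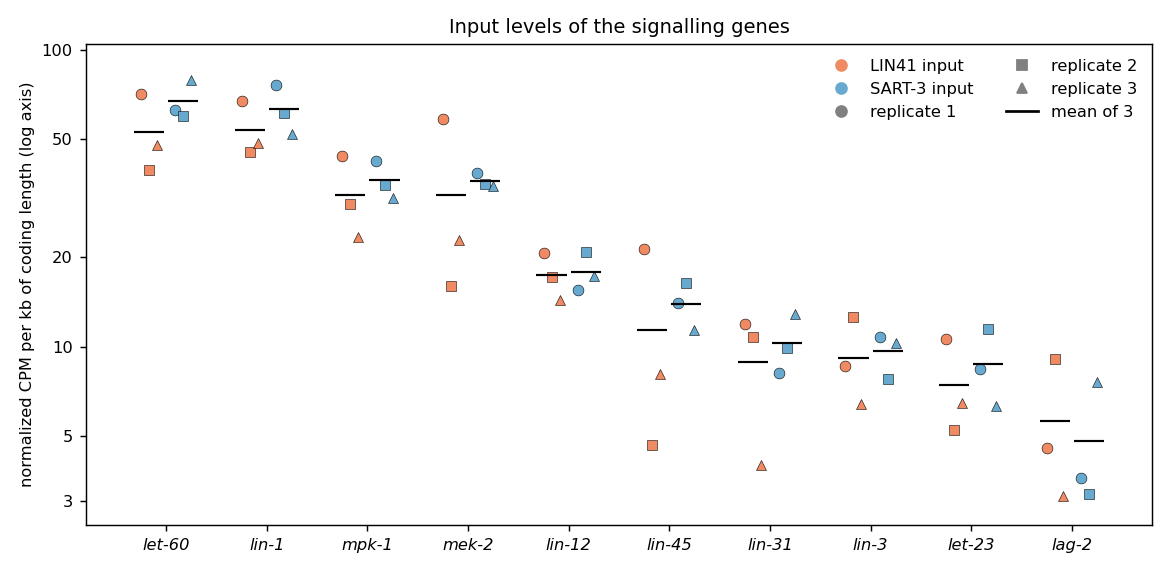
Input levels of the 10 genes in normalized CPM per kb of coding length, on a log axis, ordered by the SART-3 mean. Orange is the LIN41 input and blue the SART-3 input, with 1 symbol per replicate and a bar for the mean of 3. let-60 and lin-1 lie at 39.5 to 79.4 CPM per kb and lag-2 at 3.14 to 9.06.

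In the LIN41-specific comparison 0 genes of the wider pathway lists were called by the quasi-likelihood test. At an unadjusted p under 0.05 stood 2 of 22 other positive factors of the EGF and Ras pathway, 1 of 26 negative factors, 0 of 19 other Notch factors and 0 of 12 vulval and anchor cell markers. No list had a call in the comparison of inputs or in that of IPs.

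Of the 22 other positive factors, 3 rose and 2 fell in the LIN41 IP (median −0.66), and 2 rose and 3 fell in the SART-3 IP (median −0.40). Over all tested genes 8.89 percent were higher and 5.28 percent lower in the LIN41 IP, and 10.5 percent higher and 7.79 percent lower in the SART-3 IP, and these shares hold beside the counts of each list below. par-5, a 14-3-3 protein gene, rose by 0.95 in the LIN41 IP and by 1.00 in the SART-3 IP on the log2 scale (adjusted p = 0.0322 and 0.0187). lin-7, whose product helps to hold LET-23 at the basolateral membrane, rose by 0.87 and 0.78 (adjusted p = 0.0146 and 0.0178), and eor-2, which codes for the partner of EOR-1, rose by 0.74 in the LIN41 IP (adjusted p = 0.0273). The zinc finger factor gene eor-1 was at −0.99 and −0.75 (adjusted p = 0.0302 and 0.0468). The leucine-rich repeat scaffold gene soc-2 was at −0.77 in the LIN41 IP (adjusted p = 0.0434). In the SART-3 IP, sur-2, a Mediator subunit gene, was at −1.54 (adjusted p = 0.00461) and sos-1, which encodes the exchange factor of Ras, at −1.51 (adjusted p = 0.04995). eor-2 and sos-1 were named after their values were seen. For LIN41 the 2 lower calls were lost with DESeq2 and limma-voom, where 3 genes were higher and 0 lower, and all calls with no replicate block. With offsets for coding length these 2 calls were lost as well, and 3 genes were higher and 1 lower. The lower gene was sem-5, at −1.95 (adjusted p = 0.0403), named after its value was seen. For SART-3, DESeq2 and limma-voom each gave 3 higher and 1 lower, offsets for coding length 2 higher and 1 lower, and no replicate block 1 higher and 0 lower.

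Negative factors of the pathway had no member called higher in either IP. With offsets for coding length, gap-2, named after its value was seen, was higher in the LIN41 IP at 1.07 (adjusted p = 0.000678). In the LIN41 IP 5 of 26 fell (median −0.55): lin-35, the retinoblastoma gene, at −1.40 (adjusted p = 0.0105), the Ack-type kinase gene ark-1 at −1.07 (0.0238), the DREAM complex gene lin-9 at −1.27 (0.0288), the late endosomal GTPase gene rab-7 at −0.69 (0.0459) and gap-1 at −3.93 (0.0478). In the SART-3 IP 4 of 26 fell (median −0.40): lin-9 at −1.59 (0.00541), lin-36 at −1.63 (0.00814), ark-1 at −0.79 (0.0315) and gap-1 at −2.78 (0.0345). gap-1, which encodes a GTPase-activating protein of LET-60, was almost without reads in the IPs, with 0, 1 and 0 counts in the LIN41 IPs, against 113, 4 and 8 in the LIN41 inputs. It had 0, 4 and 0 counts in the SART-3 IPs, against 30, 29 and 32 in the SART-3 inputs. At so few reads the size of its fitted values depends on the fit. Its LIN41 value was named after it was seen. The number of lower calls among the negative factors was 2 with DESeq2, 3 with limma-voom, 3 with offsets for coding length and 1 with no replicate block for LIN41, and 2, 4, 4 and 1 under the same settings for SART-3. With offsets for coding length the call of ark-1 was lost in both IPs and that of lin-9 in the LIN41 IP. In the SART-3 IP rab-7 was called instead, at −0.58 (adjusted p = 0.0284).

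Of 19 tested Notch factors besides lin-12 and lag-2, 1 rose and 2 fell in the LIN41 IP (median −0.19), and 2 rose and 3 fell in the SART-3 IP (median −0.36). sel-9, a p24 family cargo protein gene, rose in both, by 0.94 and 0.97 (adjusted p = 0.0110 and 0.00659), and osm-11, a secreted Notch co-ligand gene, rose by 0.76 in the SART-3 IP (adjusted p = 0.0403). The kinase gene sel-5 was at −1.26 and −1.03 (adjusted p = 0.00653 and 0.00620). sel-2 was at −0.69 in the LIN41 IP (adjusted p = 0.0449). In the SART-3 IP sel-1, a gene of ER-associated degradation, was at −0.65 (adjusted p = 0.0295) and aph-2, the nicastrin gene, at −0.88 (adjusted p = 0.0406, named after its value was seen). All lower calls of Notch factors, in both IPs, were lost with offsets for coding length and with no replicate block. DESeq2 left 1 lower call in each IP, and limma-voom left 1 for LIN41 and 2 for SART-3.

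Of the 12 tested vulval and anchor cell markers, 1 fell in the LIN41 IP (median −0.40) and 2 fell in the SART-3 IP (median −0.39). The hemicentin gene him-4 was at −0.85 and −0.65 (adjusted p = 0.0154 and 0.0280), and fos-1, an anchor cell transcription factor gene, was at −0.96 in the SART-3 IP (adjusted p = 0.00741). The LIN41 call was lost with offsets for coding length and with no replicate block, and for SART-3 each of these settings left 1 call. The summed level of the 15 markers was 341 to 427 CPM in the LIN41 IPs, against 460 to 655 CPM in the LIN41 inputs, and 385 to 539 CPM in the SART-3 IPs, against 523 to 670 CPM in the SART-3 inputs. Without replicate 3, none of the genes in these 4 lists was called in either IP, where 1.40% of all tested genes were called for LIN41 and 0.399% for SART-3. No negative, Notch or vulval gene was called for LIN41 without LIN41 IP replicate 1, no negative gene for LIN41 without LIN41 IP replicate 3, and no negative or vulval gene for SART-3 without SART-3 IP replicate 3. In that order, these fits called 5.87%, 6.18% and 5.36% of all tested genes. Over all libraries left out in turn, the calls for LIN41 ran from 0 to 5 for positive, 0 to 7 for negative and 0 to 4 for Notch factors, and those for SART-3 from 0 to 11, 0 to 8 and 0 to 6.

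**Figure D5:**
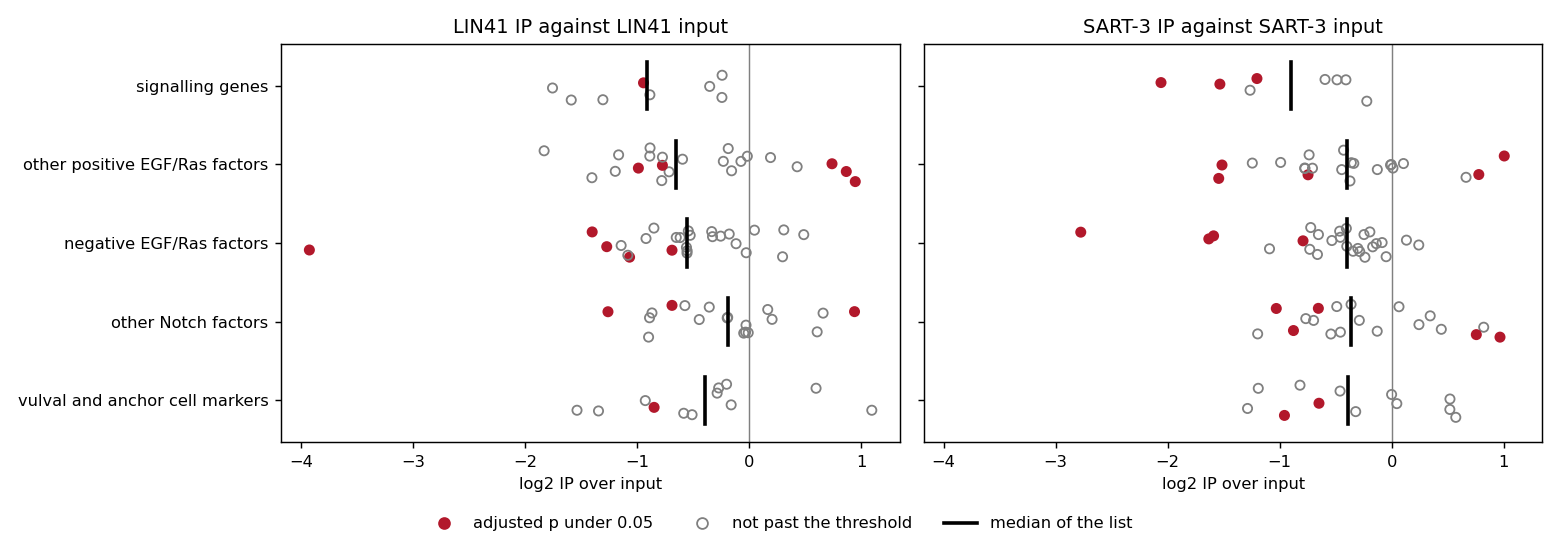
Fitted log2 of IP over input for the tested genes of each list, in the LIN41 strain (left) and the SART-3 strain (right). Filled red points passed the adjusted p threshold of 0.05, open points did not, and the black bar is the median of the list. The medians of the 8 signalling genes, −0.91 and −0.90, lie left of those of the other lists, which run from −0.66 to −0.19 for LIN41 and from −0.40 to −0.36 for SART-3. The medians of all 5 lists lie below the median of all genes.

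For each tested gene, the other gene with the most similar profile was found by Pearson's r of log2 CPM over the 12 libraries, as a description. The libraries share differences of depth, lane and replicate. let-23 was closest to ceh-100 (r = 0.98, 3972 and 4038 bp), mek-2 and lin-1 to srpa-72 and C01C4.3 (r = 0.97 each), lin-45 to sde-2 (r = 0.97) and lin-12 to rad-50 (r = 0.96, 4290 and 3939 bp). let-60 was closest to Y56A3A.7 (r = 0.94), mpk-1 to pde-3 (r = 0.91) and lin-3 to Y42H9AR.1 (r = 0.89).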

How the data were processed

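Counts of 12 RIP-seq libraries were used as deposited. According to the methods and labels, the authors collapsed reads with the same 5′ end, aligned them with QuasR 1.20.0 and SAMtools 1.2, and counted reads over the exons of WormBase WS190 genes. The methods name ce6 and the labels ce10. Collapsing limits the counts of short, abundant genes, and the highest count per bp among the signalling genes was 0.168 (let-60). Of the deposited gene lengths, 96.6% are multiples of 3 and are called coding lengths here. Symbols matched 93.0% of identifiers, and the WBcel235 annotation gave names, positions and overlaps only. Groups were taken from the sample labels.

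The counts were fitted with edgeR 4.0.16 in R 4.3.3 (quasi-likelihood F test, filterByExpr by 4 groups, TMM factors, two-sided), in a model of protein, library type (IP or input), the interaction of both and the replicate number. The methods name a sequencing batch, which the labels do not give, and the replicate number took its place. They also name edgeR 3.22.3 with a likelihood ratio test, run here as an alternative. The biological coefficient of variation was 0.167. Same-numbered libraries deviated together across 7718 genes (r over 0.1 in 12 of 12 pairs of groups compared directly, from 0.27 to 0.70, and in 17 of 18 pairs in all), so the replicate number was kept. Standard errors are the absolute log2 value over the square root of F. Values per replicate used a prior count of 2. DESeq2 1.42.0, limma 3.58.1 (voom) and the scaling, filter and leave-out settings were alternatives. The test was also run on simulated counts that had a common spread and no replicate effect. Since replicate 1 stood apart in the data, that run does not bear on the calls given here. Replicates are described as independent experiments.

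The 10 genes, the pathway and marker lists and the tests were chosen with earlier results of these data known. All 10 genes are named. From each other list, up to 4 genes per comparison are named, those of lowest p among called genes with the same sign in 3 replicates, and exceptions are stated. For likeness of pattern, 1 gene is named per tested signalling gene. Of the negative factors, 28 of 29 listed genes were matched. No sequence was analysed.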

Additional observations from a re-analysis of the deposited data

How the results depend on the processing

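LIN41-specific enrichment and LIN41 IP against SART-3 IP called 0 of the signalling genes under every alternative and every library or replicate left out. For LIN41 IP against LIN41 input, 1 gene was called, 0 with no replicate block, DESeq2, limma-voom, offsets for coding length or at least 10 counts in every library, 2 with a replicate block per lysate, and 3 with an adjusted p under 0.1, no filter on low counts, total counts only or the likelihood ratio test. For SART-3 IP against SART-3 input, 3 were called, 0 with no replicate block or at least 10 counts in every library, 1 with thinned counts, 2 with DESeq2, limma-voom or offsets for coding length, and 5 with total counts only or an adjusted p under 0.1. For LIN41 input against SART-3 input, 0 were called under every alternative. Leaving out single replicates or libraries gave 0 to 3 calls for LIN41 IP against input, 0 to 4 for SART-3 IP against input and 0 to 3 for the inputs. At least 10 counts in every library left only lin-1 to be tested, and the fits that leave out libraries or thin counts have fewer reads to test. For the other settings the cause was not tested. None of the 4 IP calls changed sign under any setting. For the inputs, which had no call with all libraries, the value of lin-45 ran from −1.09 to 0.20 and that of mek-2 from −0.83 to 0.11 over all settings. A replicate block per lysate gives no value between strains, since each lysate belongs to 1 strain. Over all settings, 1.40% to 25.1% of all genes were called for LIN41 IP against input and 0.399% to 31.9% for SART-3 IP against input. Depth limits the IPs: 3 counts correspond to 8.11 to 13.5 CPM in the LIN41 IPs and 4.96 to 8.30 CPM in the SART-3 IPs, close to the IP levels of lin-3, lin-31, lin-45 and lag-2. The lowest IP levels of let-23, 2.73 CPM for LIN41 and 2.77 CPM for SART-3, lay below these values.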
